A study of Mus musculus with 203 samples.

Results

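The Zfp36 family comprised Zfp36, Zfp36l1 and Zfp36l2, which are 3 of the 25094 genes listed for the RNA-seq of KDM1A-depleted macrophages, and all 3 were among the 12905 genes tested. They were picked by symbol, and the family was chosen because Zfp36l1 was among the strongest decreases with shKDM1A, so every comparison of shKDM1A with shGFP cells is given for the members as a description without a test. RAW264.7 (RAW cells) is a mouse macrophage line, labelled as BALB/c. All cells carried a lentiviral shRNA and had been selected with puromycin, and the groups were shGFP control cells and shKDM1A cells, each left without IL4 or given 20 ng/ml of IL4 for 6 h. Each group had 4 libraries, 16 in all. Each target was represented by a stable line made with 1 shRNA, so that the shRNA and the line cannot be told apart. The study's methods call the replicates of all experiments biological, without saying for these libraries whether they were separate cultures, and p-values measure only the spread between these libraries.

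Tristetraprolin, encoded by Zfp36, and its relatives encoded by Zfp36l1 and Zfp36l2 are zinc finger proteins that bind AU-rich elements in the 3′ untranslated regions (3′ UTRs) of mRNAs and recruit the CCR4-NOT deadenylase, after which the mRNA is decapped or degraded by the exosome. Tristetraprolin is known in macrophages for limiting Tnf and other cytokine mRNAs. The p38-MK2 kinase pathway phosphorylates the protein, 14-3-3 proteins then bind it and its activity is restrained, while the phosphatase PP2A reverses this. IL4 acts through the transcription factor STAT6, and KDM1A (LSD1) is a histone demethylase.

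On mm9, the build of the deposited coordinates, Zfp36 lies at chr7:29161803-29164247, Zfp36l1 at chr12:81208747-81214000 and Zfp36l2 at chr17:84583269-84587287, all on the minus strand. No other listed gene overlaps any of them, and the nearest, Thada, ends or begins 2109 bases from Zfp36l2. The exonic lengths used for counting were 1761 bases for Zfp36, 2980 for Zfp36l1 and 3528 for Zfp36l2. In the annotated transcripts of the same build, each member has 2 exons, and the 3′ UTRs hold 774, 1829 and 1822 bases. Each member's own 3′ UTR contains the AU-rich core TATTTAT 3 times, and in each member 1 of these lies inside the nonamer TTATTTATT. The core was searched on the transcript strand and the 3 copies do not overlap. It occurred at least once in 27.0% of the 10515 tested genes with an annotated 3′ UTR. Among tested genes whose 3′ UTR was within 20% of the member's in length, 3 or more copies were present in 0.318% of 1258 genes for Zfp36, in 3.64% of 1733 for Zfp36l1 and in 3.68% of 1741 for Zfp36l2. The nonamer was present in 3.66%, 8.77% and 8.73% of the same genes. The nonamer-containing sites are shown because they are the letters that the family's own proteins are known to recognise, with the core in capitals. They lie in exon 2 at chr7:29161973-29161995, chr12:81209157-81209179 and chr17:84584257-84584279 of mm9, and all read 5′ to 3′ on the minus strand.
Zfp36: gacgacttTATTTATtgtattaa
Zfp36l1: tgttggatTATTTATtttagaaa
Zfp36l2: atttaactTATTTATtatcttgt

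RefSeq promoters (GRCm38.p6) matched 2 of the 3 members, Zfp36 and Zfp36l1. The 250 bases before the start are shown for these because both mRNAs rose with IL4 in shGFP cells, at chr7:28379229-28379478 and chr12:80113014-80113263, both on the minus strand. Capitals mark the letters searched on both strands, which were the STAT6 motif in its form of TTC and GAA with 4 bases between them, the AP-1 motif TGANTCA, the PU.1/ETS core GGAAGT, the GC box GGGCGG and the CArG box.
Zfp36: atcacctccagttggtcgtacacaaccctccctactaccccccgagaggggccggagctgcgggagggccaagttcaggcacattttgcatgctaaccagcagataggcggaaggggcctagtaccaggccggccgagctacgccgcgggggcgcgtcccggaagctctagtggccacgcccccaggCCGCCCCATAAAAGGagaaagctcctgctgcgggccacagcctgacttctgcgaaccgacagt
Zfp36l1: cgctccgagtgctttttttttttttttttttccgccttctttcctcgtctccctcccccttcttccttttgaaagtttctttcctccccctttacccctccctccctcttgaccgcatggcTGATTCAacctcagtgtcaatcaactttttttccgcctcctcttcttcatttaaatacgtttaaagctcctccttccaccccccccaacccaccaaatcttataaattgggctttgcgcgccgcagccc
The Zfp36 window holds a GC box on the opposite strand, 63 to 58 bases before the start, which shares 1 base with a CArG box at 58 to 49 bases. The Zfp36l1 window holds an AP-1 motif at 129 to 123 bases. The remaining letters searched are not in these windows, and other spacings of the STAT6 motif were not searched. Among 32841 promoters, a GC box was present in 32.7%, a CArG box in 1.47%, the AP-1 motif in 6.75%, the PU.1/ETS core in 19.7% and the STAT6 motif in 5.85%.

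The libraries held 17554721 to 27782568 tags. The deposited values are on a log2 scale, and their transformation is not given in the sources used here. Were it a moderated one, differences of low genes would be understated. All 8 macrophage markers examined were expressed, with log2 values from 9.52 for Fcgr1 to 17.2 for Lyz2. Of 8 markers of other cell types, 2 (Pecam1 and S100a8) reached a value of 1, the highest being 1.44, and the defining markers Epcam and Ncr1 were at 0. The log2 of the summed macrophage markers was 17.48 to 17.53 in shGFP cells, 17.22 to 17.25 in shGFP cells with IL4, 17.71 to 17.74 in shKDM1A cells and 17.65 to 17.74 in shKDM1A cells with IL4, and its part in the results was not tested. With IL4 in shGFP cells 2 of the 8 markers rose by limma (Adgre1 by 1.24 and Csf1r by 0.26) and 2 fell (Lyz2, the most abundant, by 0.53 and Fcgr1 by 0.12), and in shKDM1A cells 3 rose and 3 fell. Against shGFP cells, 5 markers were higher in shKDM1A cells and 3 (Fcgr1, Adgre1 and Ptprc) lower, without IL4 and with it, with Lyz2 at 0.26 and 0.68 and Adgre1 at -0.11 and -0.44. Kdm1a, the targeted gene, was at 11.13 to 11.23 in shGFP and 10.23 to 10.36 in shKDM1A cells without IL4, and at 11.07 to 11.12 and 10.28 to 10.34 with IL4. The differences were -0.88 (SE 0.028, adjusted p = 5.6e-13 from limma) and -0.79 (SE 0.028, adjusted p = 2.2e-12). In such bulk samples fewer expressing cells and less RNA per cell cannot be told apart.

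Zfp36l1 was the member with the lowest level and the widest range across groups. Its log2 values were 8.66, 8.57, 8.74 and 8.67 in the 4 shGFP libraries and 9.03, 9.21, 9.12 and 9.03 in the 4 shGFP libraries with IL4. In shKDM1A cells they were 7.44, 7.47, 7.28 and 7.26 without IL4 and 7.44, 7.51, 7.39 and 7.40 with IL4. All 8 shKDM1A libraries were thus below all 8 shGFP libraries, and only within shKDM1A cells did the values with and without IL4 overlap. The share of all genes tested whose groups lie apart in this way was not counted. Such separation is therefore given as a description only, here and below. The means were 8.66 ± 0.073 (SD, n = 4) in shGFP, 9.10 ± 0.086 in shGFP with IL4, 7.37 ± 0.107 in shKDM1A and 7.43 ± 0.053 in shKDM1A with IL4. 

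With IL4, Zfp36l1 rose in shGFP cells by a log2 difference of 0.44 (SE 0.053, 1.36-fold, adjusted p = 8.0e-06 from limma). In shKDM1A cells, the IL4 difference of Zfp36l1 was 0.07 (SE 0.053, adjusted p = 0.38 from limma), with a 95% confidence interval from -0.04 to 0.18. The IL4 differences share libraries with the comparisons on which Zfp36l1 was selected, and the difference between them, -0.37 (SE 0.074), is given as a description. It ranked 28 from the lowest among the 12905 genes tested.

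The values that chose the family were the differences of Zfp36l1 between shKDM1A and shGFP cells. They were -1.30 (SE 0.053) without IL4 and -1.67 (SE 0.053) with IL4, which are 2.45-fold and 3.17-fold lower levels. Zfp36l1 ranked 8 from the lowest without IL4, between Tmem176a at -1.34 and Rcsd1 at -1.25, and the strongest decrease was -2.35. With IL4 it ranked 4 from the lowest, between Ptgs1 at -1.91 and Plcb2 at -1.66, and the strongest decrease was -2.30. In the comparison without IL4, 18.4% of all genes tested were called lower and 19.7% higher, and with IL4 the shares were 19.8% and 20.9%. Nothing is read from these shares for the members, since the rule used these contrasts.

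**Figure D1:**
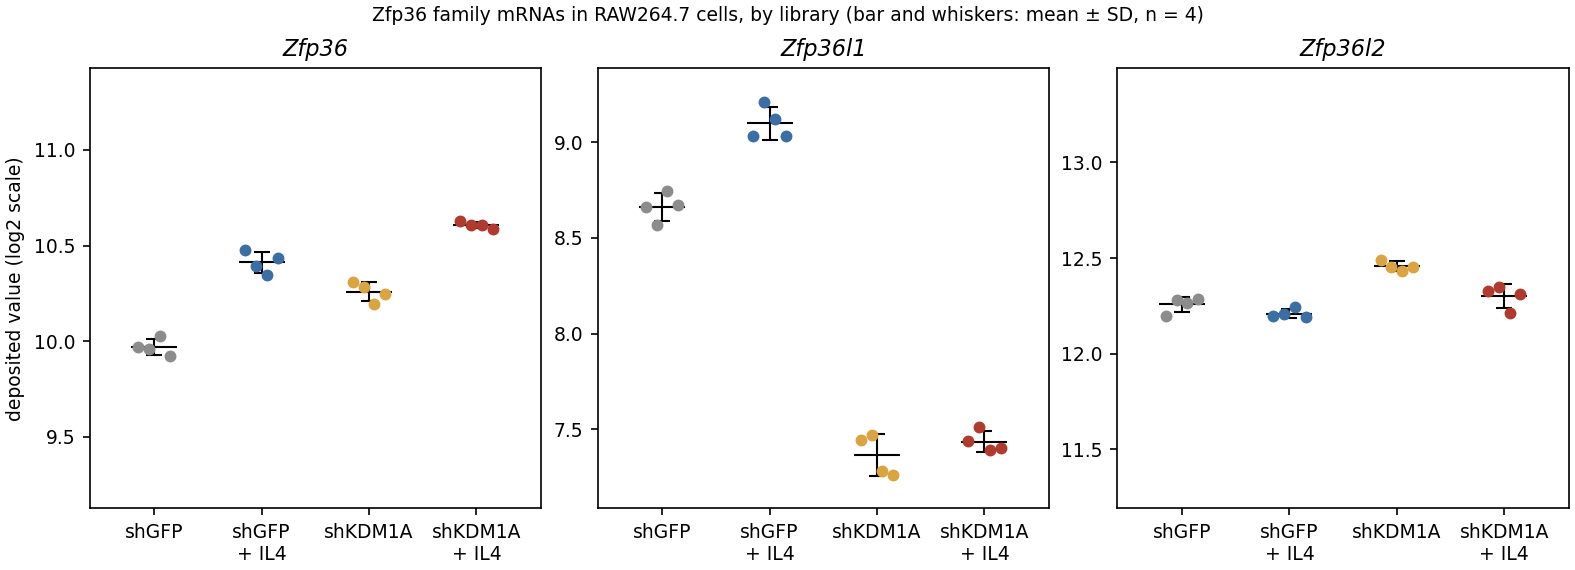
Deposited log2 values of Zfp36, Zfp36l1 and Zfp36l2 (vertical axes, each spanning the same range of log2 units) in the 4 libraries of each group of RAW cells, with points for libraries and bars and whiskers for the mean ± SD. Zfp36l1 lies between 8.57 and 9.21 in shGFP libraries and between 7.26 and 7.51 in shKDM1A libraries, while Zfp36l2 stays between 12.19 and 12.49 throughout.

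Zfp36, which encodes tristetraprolin, was raised by IL4 in both lines. Its log2 values were 9.97, 9.96, 10.03 and 9.92 in shGFP cells and 10.48, 10.39, 10.35 and 10.43 in shGFP cells with IL4. In shKDM1A cells they were 10.31, 10.29, 10.20 and 10.25 without IL4 and 10.63, 10.61, 10.61 and 10.59 with IL4. The 4 groups did not overlap and stood in the order shGFP, shKDM1A, shGFP with IL4 and shKDM1A with IL4, but the middle pair came close, at up to 10.31 and from 10.35. The IL4 difference was 0.44 (SE 0.030, 1.36-fold, adjusted p = 9.9e-09 from limma) in shGFP cells and 0.35 (SE 0.030, 1.27-fold, adjusted p = 2.1e-07) in shKDM1A cells. A larger IL4 difference than that of Zfp36 was seen for 1.08% of all genes in shGFP and for 1.41% in shKDM1A cells. Against shGFP cells, Zfp36 stood 0.29 (SE 0.030) higher in shKDM1A cells without IL4 and 0.20 (SE 0.030) higher with IL4, on the log2 scale. These differences went the opposite way to those of Zfp36l1, and 5.35% and 8.49% of all genes had higher ones.

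Zfp36l2 was the most abundant member and varied least. Its log2 values were 12.20, 12.28, 12.26 and 12.29 in shGFP cells and 12.20, 12.21, 12.24 and 12.19 in shGFP cells with IL4, ranges that overlap. In shKDM1A cells they were 12.49, 12.45, 12.43 and 12.45 without IL4 and 12.33, 12.35, 12.21 and 12.31 with IL4. The shKDM1A libraries without IL4 were above every other library, and the other 3 groups overlapped. With IL4, Zfp36l2 fell in shKDM1A cells, with a log2 difference of -0.16 (SE 0.029, 1.11-fold lower, adjusted p = 0.00061 from limma). In shGFP cells the IL4 difference of Zfp36l2 was -0.05 (SE 0.029, adjusted p = 0.26 from limma), with a 95% confidence interval from -0.11 to 0.01. Against shGFP cells, Zfp36l2 was 0.20 (SE 0.029) higher in shKDM1A cells without IL4 and 0.09 (SE 0.029) higher with IL4, where the ranges overlapped and quantile normalization gave 0.05.

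With IL4, 2 of the 3 members rose and none fell in shGFP cells by limma, where 13.1% of all genes tested were called higher and 13.7% lower. In shKDM1A cells 1 member rose and 1 fell, where the background was 13.6% higher and 13.5% lower. Zfp36l1, which rose only in shGFP cells, shares these libraries with the comparisons that chose it. Nothing is therefore read from the counts of members. Over the same comparisons the median log2 difference of all genes tested was -0.00049 in shGFP and -0.0025 in shKDM1A cells.

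**Figure D2:**
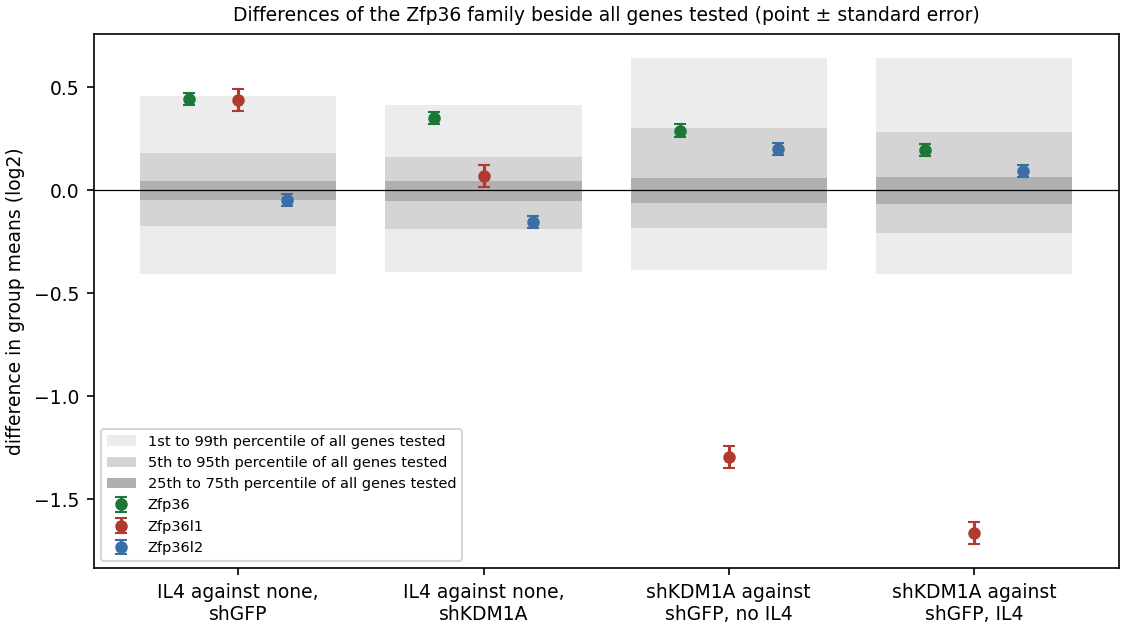
Differences between group means (vertical axis, log2) of Zfp36, Zfp36l1 and Zfp36l2 in 4 comparisons (horizontal axis), with points and whiskers for the difference ± standard error and grey bands for percentile ranges of the 12905 genes tested. Zfp36l1 falls far below the bands in both comparisons of shKDM1A with shGFP cells, at -1.30 and -1.67. The family was chosen on this decrease, so that position was fixed by the choice. Zfp36 and Zfp36l1 lie together at 0.44 for IL4 in shGFP cells.

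Levels were compared between members after dividing by exonic length, as log2 values per kb. In shGFP cells, Zfp36l2 was at 10.44 ± 0.042 (SD, n = 4), Zfp36 at 9.15 ± 0.043 and Zfp36l1 at 7.08 ± 0.073, levels higher than those of 89.9%, 75.5% and 41.9% of the genes tested. The order Zfp36l2, Zfp36, Zfp36l1 was the same in all 16 libraries, and no library of a member reached the range of the next. Per length, the level of Zfp36l2 was 10.2-fold that of Zfp36l1 in shGFP cells and 28.8-fold in shKDM1A cells. Zfp36l1 per length was higher than 27.3% of the genes tested in shKDM1A cells. Zfp36l3, a rodent relative on chromosome X known from the placenta, was listed at log2 values of 2.69 to 2.77 in the 16 libraries, and passed the limma test in no comparison (adjusted p from 0.54 to 0.96). 

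As a share of the summed linear per-length level of the 3 members, Zfp36l2 contributed 66.3% ± 1.04 (SD, n = 4) in shGFP cells, Zfp36 27.2% ± 0.828 and Zfp36l1 6.49% ± 0.317. With IL4 the share of Zfp36 was 33.7% ± 1.25 in shGFP cells, where that of Zfp36l2 was 58.3% ± 0.982 and that of Zfp36l1 8.01% ± 0.478. In shKDM1A cells the share of Zfp36l1 was 2.36% ± 0.140 without IL4 and 2.44% ± 0.0595 with IL4, and that of Zfp36 29.7% ± 0.391 and 37.3% ± 0.994. The shares of Zfp36l1 in shKDM1A cells, at most 2.53%, did not overlap those in shGFP cells, at least 6.04%. The log2 of the summed level was 11.03 ± 0.028 in shGFP, 11.17 ± 0.0072 in shGFP with IL4, 11.20 ± 0.033 in shKDM1A and 11.21 ± 0.039 in shKDM1A cells with IL4. Without IL4, the summed level was higher in every shKDM1A library than in every shGFP library, and with IL4 the ranges overlapped.

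**Figure D3:**
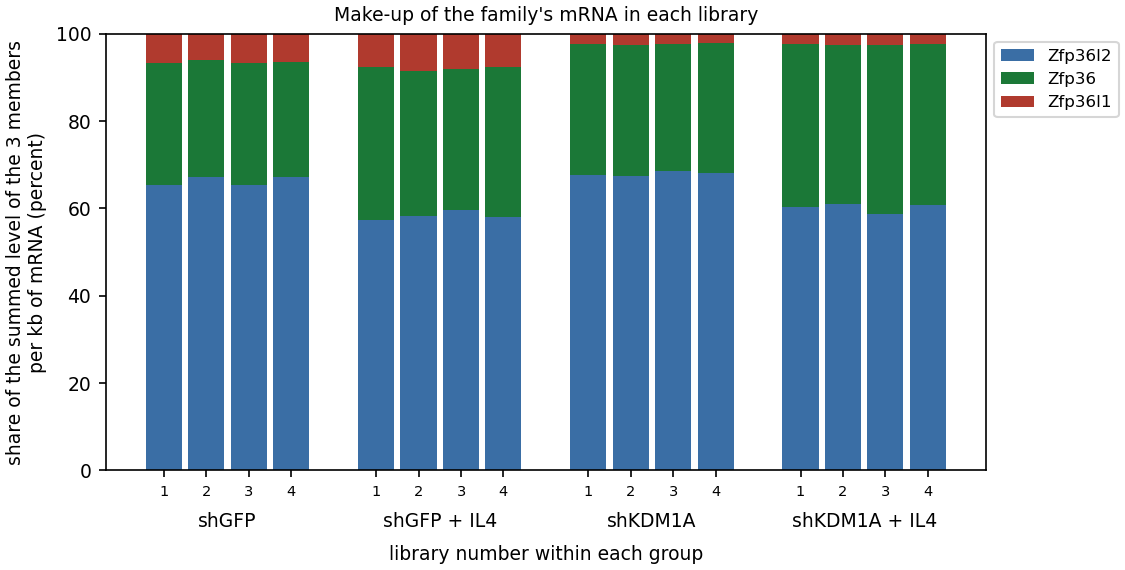
Share of each member in the summed linear level of the 3 members per kb of exon (vertical axis, percent) in each of the 16 libraries (horizontal axis, grouped by shRNA and IL4). Zfp36l2 makes up 57.4% to 68.6% of this summed level in every library. The share of Zfp36l1 is 6.04% to 8.64% in shGFP libraries and 2.21% to 2.53% in shKDM1A libraries.

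The genes with the pattern most like each member were ranked by Pearson correlation of log2 values over the 16 libraries, which form 4 groups, so that the correlation mostly describes group means. Zfp36 was closest to Mitf (r = 0.985), which encodes a transcription factor of lysosomal and osteoclast genes, followed by Ank, Gclc, Gclm and Nfatc1 (r = 0.981 to 0.974). Gclc and Gclm encode the 2 subunits of the enzyme that starts glutathione synthesis, and Nfatc1 a transcription factor of osteoclasts. Mitf was at a mean log2 value of 10.30 in shGFP, 10.73 in shGFP with IL4, 10.57 in shKDM1A and 10.91 in shKDM1A cells with IL4, the same order of groups as Zfp36. Zfp36l1 was closest to St6gal1 (r = 0.995), a sialyltransferase, followed by Ctnnb1 (beta-catenin), Spink5, Adgrl1 and Cytip (r = 0.987 to 0.985). St6gal1 was at 10.04, 10.29, 9.20 and 9.25 in the same order of groups. Zfp36l2 was closest to Hyal1 (r = 0.942), a lysosomal hyaluronidase, followed by Sgpl1, Fam102a, Slc30a4 and Zfp346 (r = 0.938 to 0.930). Between members, r was -0.34 for Zfp36 with Zfp36l1, -0.76 for Zfp36l1 with Zfp36l2 and -0.03 for Zfp36 with Zfp36l2. Zfp36l1 and Kdm1a had r = 0.956, a value that follows from the choice of a gene lowered with shKDM1A and is not a finding.

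Among 30 AU-rich-element mRNAs reported as targets of the family, 22 were tested, and Il6, Il1a, Il1b, Il10, Il23a, Csf2, Cxcl1 and Dll4 were too low. The core TATTTAT was present in the 3′ UTR of 16 of these 22 genes, against 27.0% of the 10515 tested genes with an annotated 3′ UTR. The nonamer was present in 8 of the 22, against 7.28%. The list was drawn up as AU-rich-element mRNAs, so high shares are built in. IL4 changed 19 of the 22 in shGFP cells, with 8 rising and 11 falling, against 13.1% and 13.7% of all genes. In shKDM1A cells, IL4 raised 8 and lowered 11, against 13.6% and 13.5%. The median difference was -0.11 in shGFP and -0.07 in shKDM1A cells. Tnf, the cytokine mRNA best known as a tristetraprolin target, was at 10.13 to 10.26 in shGFP libraries and 9.48 to 9.64 with IL4, a difference of -0.63 (SE 0.041, adjusted p = 4.4e-09 from limma). In shKDM1A cells Tnf went from 9.92 to 9.95 without IL4 to 9.40 to 9.54 with IL4, a difference of -0.44 (SE 0.041, adjusted p = 4.4e-07). The chemokine Ccl3 fell by 0.30 in shGFP and 0.43 in shKDM1A cells, on the log2 scale. Ptgs2, which encodes cyclooxygenase 2, rose by 0.71 (SE 0.035) in shGFP and 0.90 (SE 0.035) in shKDM1A cells, the largest rise of the list in each. The chemokine Ccl2 rose by 0.68 in shGFP and 0.59 in shKDM1A cells, and Myc by 0.54 and 0.68.

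In shKDM1A against shGFP cells, 9 of the 22 listed targets were higher and 4 lower without IL4, against 19.7% and 18.4% of all genes, and 8 were higher and 4 lower with IL4, against 20.9% and 19.8%. The largest rises were those of Fos, an AP-1 subunit, at 0.76 (SE 0.027) without IL4 and 0.77 (SE 0.027) with IL4, and of Cxcl10, an interferon-induced chemokine, at 0.54 (SE 0.053) and 0.84 (SE 0.053). Ccl2 was lower, at -0.31 without and -0.40 with IL4 (SE 0.036), and Tnf was lower without IL4, at -0.25 (SE 0.041, adjusted p = 0.00011 from limma).

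The kinases and phosphatases that act on tristetraprolin or on p38 upstream of it were described from a list of 12 genes. Of these 11 were tested, and 3 rose and 2 fell with IL4 in each line. Of all genes, 13.1% rose and 13.7% fell in shGFP cells, and 13.6% and 13.5% in shKDM1A cells. Mapkapk2, which encodes the kinase MK2, was at 13.79 to 13.83 in shGFP libraries and 13.27 to 13.30 with IL4, a difference of -0.52 (SE 0.021, adjusted p = 1.2e-11 from limma). It fell by 0.38 (SE 0.021) in shKDM1A cells. Dusp1, a phosphatase that inactivates p38, rose by 0.27 (SE 0.042) in shGFP and 0.40 (SE 0.042) in shKDM1A cells, and Map2k3, a kinase upstream of p38, rose by 0.23 (SE 0.021) in each. In shKDM1A against shGFP cells 3 of the 11 were higher and 2 lower without IL4, against 19.7% and 18.4% of all genes, and 3 were higher and 3 lower with IL4, against 20.9% and 19.8%. Mapk12 (p38 gamma) was 0.32 (SE 0.034) higher without and 0.26 higher with IL4, and Map2k6, another kinase upstream of p38, was at -0.30 (SE 0.030) and -0.28. Of the 7 genes for 14-3-3 proteins, 4 rose and none fell with IL4 in each line by limma, all by at most 0.13 on the log2 scale, with Ywhaz at 0.12 (SE 0.019) and Ywhah at 0.09 (SE 0.022) in shGFP cells. Of all genes, 13.1% rose in shGFP and 13.6% in shKDM1A cells. The 4 became 2 in each line at an adjusted p under 0.01, and 2 in shKDM1A cells also with quantile normalization or with only the 2 groups compared in the fit.

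The decay machinery comprised 48 genes in 4 lists, 11 subunits of CCR4-NOT, 8 other deadenylation factors, 15 decapping and 5′-to-3′ decay factors and 14 genes of the exosome and Ski complex. IL4 raised 3 and lowered 3 of them in shGFP cells and raised 7 and lowered 3 in shKDM1A cells, where all genes gave 13.1% higher and 13.7% lower in shGFP and 13.6% and 13.5% in shKDM1A cells. The 3 lower genes became 1 in shGFP cells without shGFP library 1 or IL4 library 4, and 1 in shKDM1A cells without shKDM1A library 2, 3 or 4 or IL4 library 1. The largest was Btg1, an antiproliferative factor that binds the deadenylase, at 11.86 to 11.92 in shGFP libraries and 11.07 to 11.15 with IL4. It fell by 0.78 (SE 0.026, adjusted p = 1.4e-12 from limma) in shGFP and by 0.49 (SE 0.026, adjusted p = 5.2e-10) in shKDM1A cells. The catalytic subunit gene Cnot8 rose by 0.11 (SE 0.021, adjusted p = 0.00070) in shGFP cells.

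In shKDM1A against shGFP cells 4 of the 48 were higher and 17 lower without IL4, and 4 were higher and 15 lower with IL4, where 19.7% and 20.9% of all genes were higher and 18.4% and 19.8% lower. The median differences were -0.05 and -0.02, and those of all genes -0.0027 and -0.0024. By list, the lower genes without IL4 were 5 of 11 subunits of CCR4-NOT, 3 of 8 other deadenylation factors, 4 of 15 decapping factors and 5 of 14 exosome and Ski genes, and with IL4 they were 6, 4, 4 and 1 in the same order. The 5 of CCR4-NOT were 3 without shGFP library 2 and without shKDM1A library 2 or 3, and the 4 decapping factors were 2 without shKDM1A library 1. With IL4, the 1 lower exosome and Ski gene became 0 without shGFP IL4 library 1 or 3, or without shKDM1A IL4 library 2 or 4. Cnot2, a scaffold subunit of CCR4-NOT, was at -0.19 (SE 0.027) without and -0.16 (SE 0.027) with IL4, Parn, a poly(A)-specific ribonuclease, at -0.14 and -0.21 (SE 0.031), and Lsm6, of the ring that activates decapping, at -0.32 and -0.21 (SE 0.031). Edc3, an enhancer of decapping, was 0.28 (SE 0.027) higher without IL4 and with it, and Wdr61, a Ski complex subunit, 0.32 and 0.40 (SE 0.032) higher.

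Of 11 other AU-rich-element and stem-loop binding proteins, IL4 raised 3 in shGFP and 2 in shKDM1A cells and lowered none by limma, where 13.1% and 13.6% of all genes rose. The 3 in shGFP cells became 1 at an adjusted p under 0.01. Zc3h12a (regnase-1), an endonuclease for stem-loops in cytokine mRNAs, rose by 0.15 (SE 0.040, adjusted p = 0.011 from limma) in shGFP and by 0.22 (SE 0.040, adjusted p = 0.00060) in shKDM1A cells. In shKDM1A against shGFP cells 1 was higher and 5 were lower without IL4, against 19.7% and 18.4% of all genes, and 1 was higher and 4 were lower with IL4, against 20.9% and 19.8%. The 5 lower genes were 3 without shKDM1A library 2. Zc3h12c, a relative of Zc3h12a, was 0.48 (SE 0.045) higher without and 0.18 higher with IL4, and Hnrnpd (AUF1), which binds AU-rich elements, was at -0.23 (SE 0.024) and -0.17.

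The difference in IL4 response between the lines passed the test for 3.56% of all genes as a higher and for 2.57% as a lower response in shKDM1A cells. Among the 100 listed genes tested it did so for 5 higher and 3 lower, and the members, for which it was -0.09 for Zfp36 and -0.11 for Zfp36l2 beside the -0.37 of Zfp36l1, were not tested.

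**Figure D4:**
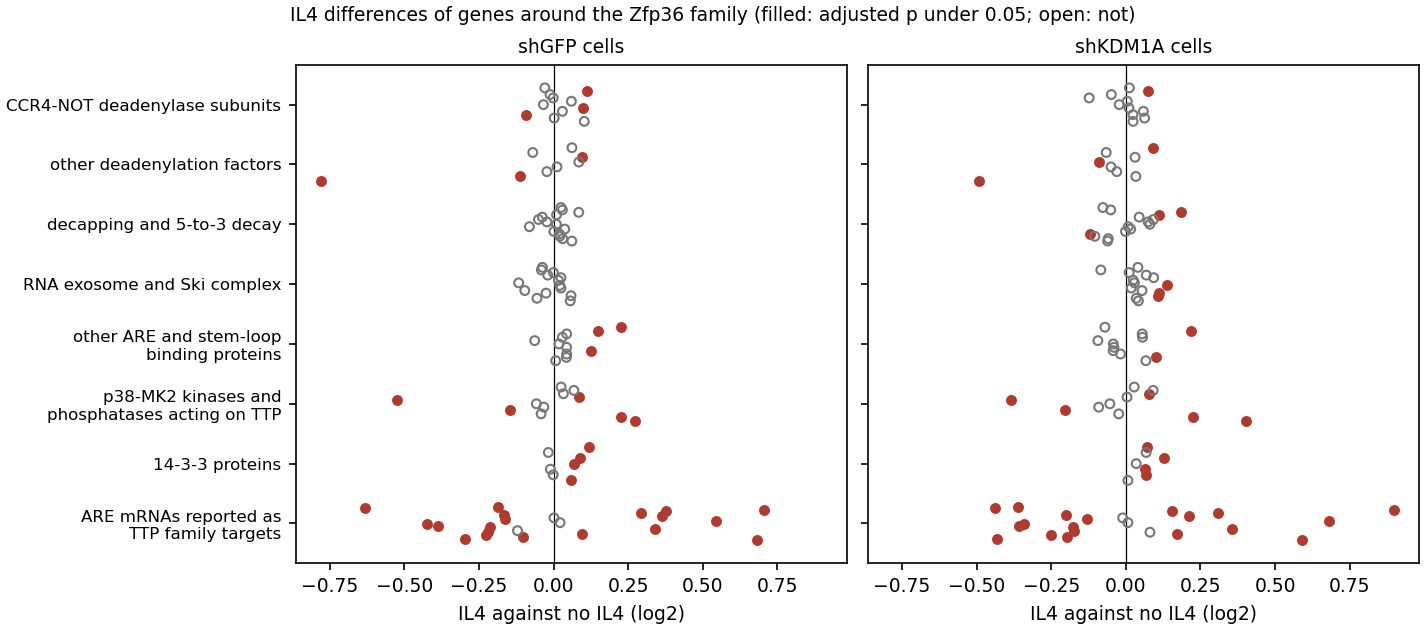
IL4 differences (horizontal axis, log2) of each tested gene in 8 lists of genes around the Zfp36 family (vertical axis) in shGFP cells (left) and shKDM1A cells (right), with filled points for an adjusted p under 0.05 and open points for the rest. The AU-rich-element mRNAs spread from -0.63 to 0.71 in shGFP cells, wider than most of the decay machinery, where Btg1 at -0.78 stands apart.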

How the data were processed

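RNA-seq of 16 libraries of RAW cells was analysed. The authors aligned reads to mm9 with HISAT2 and Bowtie2 and counted tags on the exons of RefSeq genes on both strands with HOMER, which ran DESeq2 for their comparisons. Each library has 1 deposited value per gene, log2 in scale, and the transformation is not given in the sources used here. No counts were available to this work, so no count model was fitted. Counting on both strands does not separate antisense reads. Columns with the authors' own comparisons (log2 fold changes with raw and adjusted p) were not used. The deposited table of Gps2 KO bone marrow-derived macrophages lists all 3 members among 16478 genes but holds only such comparisons, and was not analysed here, nor were the other assays.

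Groups came from the sample labels. Genes needed a value of 1 or more in 4 or more libraries. The 12905 genes left were fitted in 1 model of 4 group means with limma 3.58.1 in R 4.3.3 (two-sided tests, 12 residual degrees of freedom), with Benjamini-Hochberg adjustment per comparison over all genes tested and a threshold of 0.05. "Rose", "fell" and "called" refer to this test. Levels per length are log2 values minus the log2 of the exonic length in kb, and shares use linear values. The step was tested on simulated data. Totals of tags were 17554721 to 27782568, and the log2 values carry no counting interval.

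The members and the lists were chosen with earlier results of these data known. Named genes were the members, Kdm1a and Zfp36l3, up to 2 of the largest called changes per direction, list and comparison, and the 5 genes most like each member. Some genes that this rule names are not reported here. The alternatives were median centring, quantile normalization, no filter, a minimum of 5, only the 2 groups compared, a replicate block, a trended prior variance, leaving out each library and a threshold of 0.01. Same-numbered libraries of different groups share only a number.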

Additional observations from a re-analysis of the deposited data

Results flagged for a closer look

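For 8 of the 100 listed genes tested around the family, 5 higher and 3 lower, the IL4 difference itself differed between shKDM1A and shGFP cells in the limma test over all genes, where 3.56% and 2.57% of all genes did so. These shares are close, and nothing is read from the count. No library of a member or of Kdm1a stood apart within its group by Dixon's test in 16 groups of 4 libraries.

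Btg1, which binds the CCR4-NOT deadenylase, had an IL4 difference 0.29 higher on the log2 scale in shKDM1A than in shGFP cells (adjusted p = 0.00029 from limma), where it fell by 0.49 with IL4 against 0.78 in shGFP cells, with no overlap between libraries with and without IL4 in either line. Mapkapk2, which encodes the kinase MK2, fell by 0.38 in shKDM1A and by 0.52 in shGFP cells, again without overlap, a difference of 0.14 (adjusted p = 0.011 from limma). Both calls were kept at the 0.05 threshold under all 22 refits, but of the 8 genes Btg1 alone also passed a threshold of 0.01.

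Plau, a urokinase mRNA with an AU-rich element, had an IL4 difference 0.22 smaller in shKDM1A cells (-0.22, adjusted p = 0.011 from limma), a call kept at 0.05 under all 22 refits. Zc3h12c, an endonuclease of the regnase family, had a difference of -0.30 (adjusted p = 0.012), which missed the threshold of 0.05 in 1 of the 22 refits, the one without the filter.

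The remaining calls were near the threshold in limma. They were Ptgs2 at 0.19 (adjusted p = 0.033, lost under 10 of 22 refits), Cxcl10 at 0.30 (adjusted p = 0.027, lost under 7), Pan3, a deadenylase subunit, at -0.17 (adjusted p = 0.033, lost under 10) and Exosc2, an exosome subunit, at 0.14 (adjusted p = 0.029, lost under 8).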

How the results depend on the processing

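For the members, all 3 IL4 differences in each line kept their direction and their side of the threshold under every alternative run. With a library left out, the IL4 difference ranged from 0.40 to 0.47 for Zfp36l1 in shGFP cells (adjusted p of at most 5.5e-05 from limma), from 0.04 to 0.11 in shKDM1A cells, and from -0.17 to -0.13 for Zfp36l2 in shKDM1A cells. The differences of shKDM1A against shGFP cells kept their sign throughout, and 1 value of the members moved by more than the spread between replicates, that of Zfp36l2 with IL4 (0.09, and 0.05 with quantile normalization).

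Over all genes, 3466 genes were called for IL4 in shGFP cells, and 2259 at an adjusted p under 0.01. The difference in IL4 response was called for 791 genes, for 431 without the filter, which tests more genes, and for 263 at an adjusted p under 0.01. The other counts over all genes stayed within 1.5 times. Of the counts within the lists of genes around the family, 83 values moved by more than that and 988 did not. With IL4 in shGFP cells, the 3 other deadenylation factors called were 5 with quantile normalization and 1 without the filter or at 0.01. Leaving out 1 library gave 530 to 1104 genes for the difference in IL4 response. With a replicate block, 3430 genes were called for IL4 in shGFP and 3459 in shKDM1A cells, 4882 and 5212 for shKDM1A against shGFP cells without and with IL4, and 732 for the difference in IL4 response. The numbers did not pair the libraries, since deviations of same-numbered libraries correlated from -0.34 to 0.27 and 6 of 16 libraries correlated best with their own number.

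The 5 genes most like each member were the same after median centring. The transformation of the deposited values is not known, nor is the depth per gene.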
